A study of Mus musculus with 6 samples.

Results

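Cadherins and nonclustered protocadherins were compared between Ret-positive mechanoreceptors and dorsal column midline cells of mouse embryos at E14.5. The genes were taken by symbol alone, as every numbered Cdh, every numbered Pcdh, Celsr1 to Celsr3, the numbered Fat genes and the Dchs genes of the count table. That pattern found 43 genes among 22869 gene symbols. The pattern takes no clustered protocadherins and no desmosomal cadherins, and Dchs2 was not analysed here.

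Mechanoreceptor libraries 2, 8 and 9 were made from cells of dorsal root ganglia, the sensory ganglia that flank the spinal cord, from embryos of mixed strain with the genotype Ret-CreERT2; Rosa26-Tdtomato. The pregnant mothers were given 4-hydroxytamoxifen by mouth (1.5 and 2 mg, not assigned to single libraries), which lets Cre made under the Ret gene switch on the red fluorescent protein, and labelled cells were purified on a flow sorter after trypsin treatment. Midline libraries 2, 3 and 5 were made from wild-type embryos of mixed strain without such dosing, by laser microdissection of hematoxylin-stained frozen cord, and the labels describe the cells as roof plate-derived. Cell type, tissue, isolation, genotype and drug changed together between the groups and cannot be told apart. The labels do not say whether libraries came from separate embryos, so p-values measure only the spread between these libraries, which may be technical.

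Cadherins are calcium-dependent adhesion proteins with repeated extracellular domains. Classical type I and type II cadherins join cells that carry matching cadherins and hold the actin cytoskeleton through catenins. Delta protocadherins adhere more weakly and act in axon outgrowth and the sorting of neurons, while the very large Fat, Dachsous and Celsr proteins set planar polarity, the orientation of cells within a tissue, and Celsr3 is needed for the growth of several axon tracts. In the spinal cord and its ganglia, sets of these proteins differ between neuron pools, glia and the midline.

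Ret and the roof plate markers were highest in the groups labelled for them, and markers of other cells were also present. Ret was measured at 988, 1036 and 788 CPM (counts scaled to a common library size) in mechanoreceptor libraries 2, 8 and 9, against 13.6, 41.9 and 20.8 CPM in midline libraries 2, 3 and 5. The 12 sensory neuron markers summed to 9958 to 12652 CPM in mechanoreceptors and 763 to 1856 CPM in the midline, with 9 called toward mechanoreceptors, 1 toward the midline and 2 not called. That list includes Ret itself, the gene used to label the sorted cells, and its call is among the 9. The 10 roof plate markers summed to 2.49 to 9.69 CPM in mechanoreceptors, where Wnt1 and Gdf7 had no count, and 382 to 1762 CPM in the midline. All 9 of them that could be tested were called higher in the midline. Radial glia, dorsal horn, endothelial, connective tissue, muscle, skin and Schwann cell markers are given further below, beside single genes or libraries. The 6 pericyte markers summed to 18 to 32.4 CPM in mechanoreceptors and 329 to 411 CPM in the midline, and the 6 oligodendrocyte markers to 4.51 to 16.1 CPM in mechanoreceptors, where Olig1 had no count, and 123 to 314 CPM in the midline. The 5 cartilage markers summed to 9.69 to 26.3 CPM in mechanoreceptors and 253 to 636 CPM in the midline. All 6 pericyte, all 6 oligodendrocyte and all 4 cartilage markers that could be tested were called higher in the midline, and their part in the cadherin levels was not tested.

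Of the 43 genes, 41 had enough counts to test, and the differences leaned to the midline. A gene is called where the quasi-likelihood F test of edgeR, with Benjamini-Hochberg adjustment across 15314 genes, gave p under 0.05. Each log2 fold change is taken as mechanoreceptor minus midline, and negative values are higher in the midline. Of the 41 genes, 5 were called higher in mechanoreceptors, or 12.2%, against a background of 18.8% of all genes. In the opposite direction 14 were called higher in the midline, or 34.1%, against a background of 18.9%. Together 19 were called, or 46.3%, against a background of 37.8%. The count higher in the midline was 9 without mechanoreceptor library 8. That fit also called fewer of all genes higher in the midline, 1862 of 15645, against 2902 of 15314 with all libraries. The median log2 fold change was -1.04 over the 41 genes and -0.05 over all genes. Groups did not overlap for 7 genes with mechanoreceptors above (17.1%, background 27.3%) and for 19 genes with the midline above (46.3%, background 27.6%), where the background in either direction was 54.8%.

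**Figure D1:**
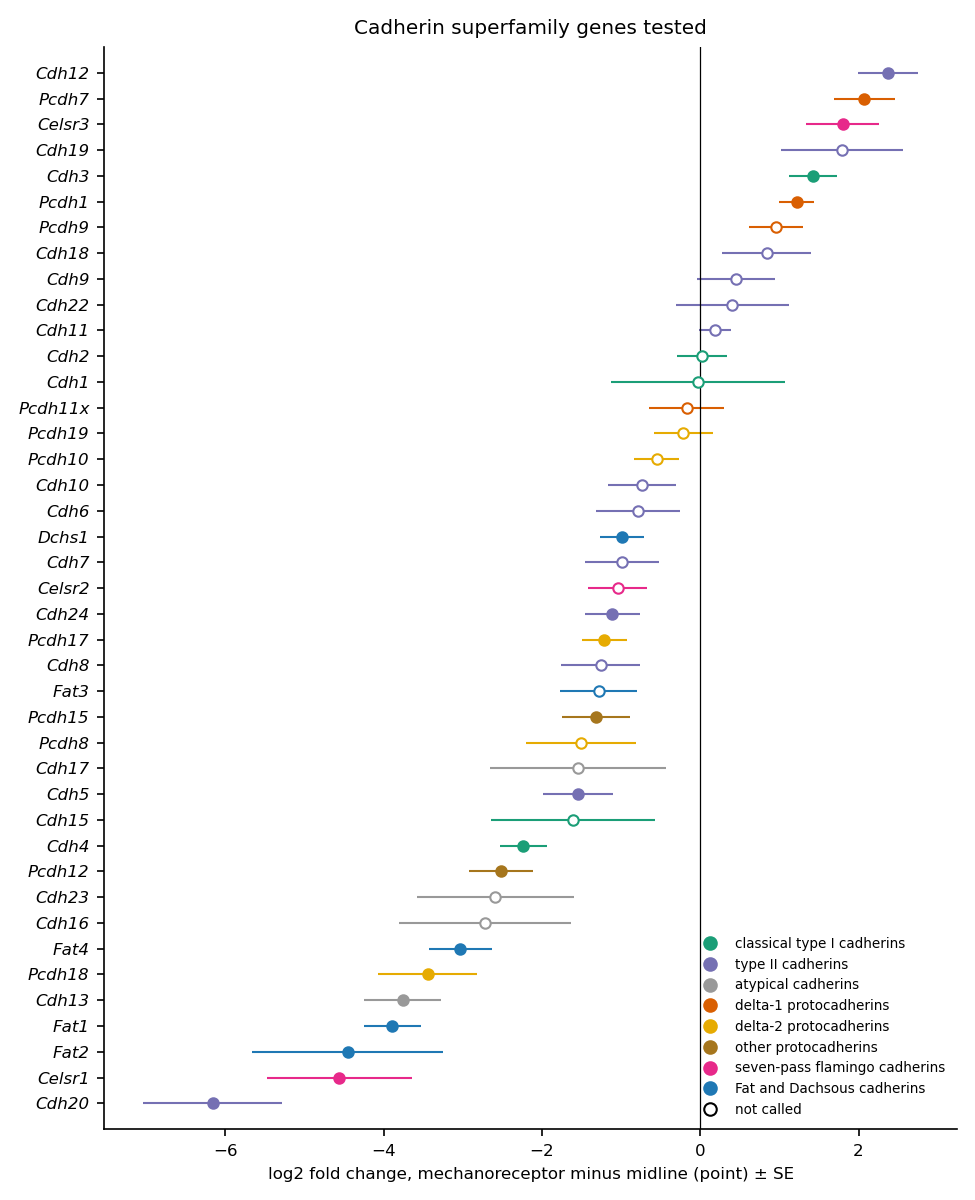
Log2 fold change (mechanoreceptor minus midline) with its standard error for the 41 tested genes, coloured by subfamily, with filled points for called genes. Fat1, Celsr1 and Cdh20 lie far to the left at -3.89, -4.56 and -6.16, and Cdh12 and Pcdh7 lie to the right at 2.37 and 2.07.

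Of the 19 called genes, 12 were called under each of the 15 alternatives in which they were tested. They were Cdh12, Cdh3, Pcdh1 and Pcdh7, all higher in mechanoreceptors, and Cdh13, Cdh20, Cdh4, Celsr1, Fat1, Fat4, Pcdh12 and Pcdh18, all higher in the midline. The promoters of 3 of these are shown, each being the 250 bases before the start that RefSeq gives on GRCm38.p6, on the strand of the gene. The choice went by size of fold change, but only among genes with a window within 1000 bases of their start in GENCODE M21. Celsr1, Fat1 and Cdh13, with larger fold changes than Pcdh18, had no such window. Cdh12, with a larger fold change than Pcdh7, had none either, nor did Cdh3 and Pcdh1. Pcdh7 was thus the only one of these genes higher in mechanoreceptors that could be shown. Capitals mark the letters of GGAATG, a motif of TEAD factors, read on either strand.
Pcdh7, chr5:57717831-57718080, plus strand, higher in mechanoreceptors: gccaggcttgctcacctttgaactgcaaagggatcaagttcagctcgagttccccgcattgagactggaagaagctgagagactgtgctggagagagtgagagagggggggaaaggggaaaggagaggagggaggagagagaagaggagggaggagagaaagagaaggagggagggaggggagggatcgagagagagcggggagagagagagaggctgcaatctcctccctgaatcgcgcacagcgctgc
Cdh20, chr1:104768270-104768519, plus strand, higher in midline: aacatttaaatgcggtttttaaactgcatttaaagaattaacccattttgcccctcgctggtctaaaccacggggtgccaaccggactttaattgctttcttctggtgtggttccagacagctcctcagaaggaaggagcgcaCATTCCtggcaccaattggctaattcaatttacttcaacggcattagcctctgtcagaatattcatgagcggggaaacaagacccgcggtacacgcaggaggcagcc
Pcdh18, chr3:49757317-49757566, minus strand, higher in midline: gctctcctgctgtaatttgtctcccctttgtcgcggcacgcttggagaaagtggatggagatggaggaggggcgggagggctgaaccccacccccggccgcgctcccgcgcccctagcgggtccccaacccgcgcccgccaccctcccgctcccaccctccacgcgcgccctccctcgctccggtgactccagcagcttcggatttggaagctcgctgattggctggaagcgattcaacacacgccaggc
The Pcdh7 promoter was 58.4% G or C and held 7 CpG pairs. The Pcdh18 promoter was 68% G or C with 23 CpG pairs, the Cdh20 promoter 47.6% with 10, and the median over all promoters was 52.4% with 6. The single match in capitals began at position -107 before the Cdh20 start. GGAATG stood in 2 of 24 windows of 22 of the genes (8.3%, Cdh20 and Cdh9) and in 12.6% of 32851 mouse promoters. CACCTG, an E-box letter string of the Snail and Zeb repressors, stood in 2 of those 24 windows (8.3%, Cdh7 and Celsr2) and in 17.2% of promoters. Both strands were read and both motifs counted separately. The 24 windows were limited to those near a GENCODE gene start and the 32851 promoters were not. The shares of each motif are therefore of unlike sets. These matches are letters only, and no binding was measured.

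The Fat and Dachsous genes, whose giant proteins bind one another between neighbouring cells, lay higher in the midline as a group. Of 5 tested, 4 were called higher in the midline (18.9% of all genes were) and 0 in mechanoreceptors (18.8% of all genes were), with a median log2 fold change of -3.03. Fat1, which acts in cell polarity and actin control, was measured at 28.4, 32.5 and 27.2 CPM in mechanoreceptors, against 444, 243 and 619.6 CPM in the midline. Its mean was 29.4 ± 2.81 CPM in mechanoreceptors and 435 ± 189 CPM in the midline (SD, n = 3 each), a log2 fold change of -3.89 (SE 0.36, adjusted p = 0.000436). Each midline library lay far above each mechanoreceptor library. In bulk RNA such as this, a difference in the number of expressing cells and one in RNA per cell cannot be told apart.

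Fat4, the receptor of Dachsous1, had 78, 54.9 and 39.7 CPM in mechanoreceptors, against 365, 722 and 323 CPM in the midline (log2 fold change -3.03, SE 0.40, adjusted p = 0.00143). The groups were well separated, with midline library 3 the highest. Dchs1, the Dachsous1 ligand, differed less, with 98.4, 74.7 and 54.0 CPM in mechanoreceptors and 131, 126 and 192 CPM in the midline (log2 fold change -0.98, SE 0.28, adjusted p = 0.0247). The Dchs1 call was lost without mechanoreceptor library 8 (adjusted p = 0.0885), mechanoreceptor library 9 (0.0852) or midline library 5 (0.0766). Receptor and ligand thus both lay above the mechanoreceptor range in each midline library.

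Fat3, which in mouse retina shapes the dendrites of amacrine neurons, was measured in every library of both cell types. It had 427, 318 and 420.1 CPM in mechanoreceptors, against 434, 634 and 1767 CPM in the midline (log2 fold change -1.28, SE 0.49, adjusted p = 0.0716). The gene was not called, midline library 5 was far above the rest, and midline library 2 barely exceeded the highest mechanoreceptor library. Without midline library 2 the adjusted p was 0.0135, without midline library 3 it was 0.0479, and without midline library 5 the log2 fold change was -0.45. With all libraries Fat3 also passed with DESeq2 (adjusted p = 0.0178), upper-quartile scaling (0.0434) and limma on the deposited log2 values (0.0375). Fat2, known from cerebellar granule cells, was low, with 0, 0.832 and 0.128 CPM in mechanoreceptors and 15.9, 4.46 and 1.74 CPM in the midline (log2 fold change -4.45, SE 1.20, adjusted p = 0.0218). Its call was lost without mechanoreceptor library 2 (log2 fold change -3.85, adjusted p = 0.0662), mechanoreceptor library 9 (adjusted p = 0.0793) or midline library 2 (-3.17, 0.0795), and without mechanoreceptor library 8 the log2 fold change was -6.52. With limma on the deposited log2 values the adjusted p was 0.0508. Fat2 had no count in mechanoreceptor library 2 and was highest in midline library 2.

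The 3 flamingo genes, which encode cadherins with 7 membrane spans, split between the groups. Celsr3, the family member of postmitotic neurons that guides axon tracts, had 239.9, 188 and 163 CPM in mechanoreceptors, against 30.0, 105 and 35.7 CPM in the midline. Its log2 fold change was 1.80 (SE 0.46, adjusted p = 0.0182), and the groups did not overlap. Midline library 3, the highest of its group, also carried the most dorsal horn neuron markers (148, 1010.1 and 339 CPM summed over the list in midline libraries 2, 3 and 5), and the part of these in the Celsr3 level was not tested. Without midline library 3 the Celsr3 log2 fold change was 2.62. The call was lost without mechanoreceptor library 2 (adjusted p = 0.0636) or midline library 5 (0.0536).

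Celsr1, the member found in neural progenitors and epithelia, had the reverse pattern, with 5.65, 13.1 and 1.40 CPM in mechanoreceptors and 69.6, 70.3 and 337 CPM in the midline. Its log2 fold change was -4.56 (SE 0.92, adjusted p = 0.00706), -3.37 without midline library 5 and -5.46 without mechanoreceptor library 8. Midline library 5, by far the highest for Celsr1, was also highest for the summed roof plate markers (9.69, 2.49 and 3.19 CPM in mechanoreceptors, against 382, 1123 and 1762 CPM in the midline). It was also highest for the 10 radial glia markers (632, 812 and 794 CPM in mechanoreceptors, where Mlc1 had no count, against 2734, 6002 and 7678 CPM in the midline), of which 9 were called higher in the midline. The part of these cells in the Celsr1 and Fat levels was not tested. Celsr2, present in progenitors and neurons alike, was not called, at 106, 108 and 97.2 CPM in mechanoreceptors and 105, 206 and 331 CPM in the midline (log2 fold change -1.04, SE 0.37, adjusted p = 0.0563). Its groups overlapped through midline library 2, without which the adjusted p was 0.00319. With all libraries Celsr2 also passed with DESeq2 (adjusted p = 0.0191), upper-quartile scaling (0.0285), a stricter count filter (0.0363) and limma on the deposited log2 values (0.0377).

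**Figure D2:**
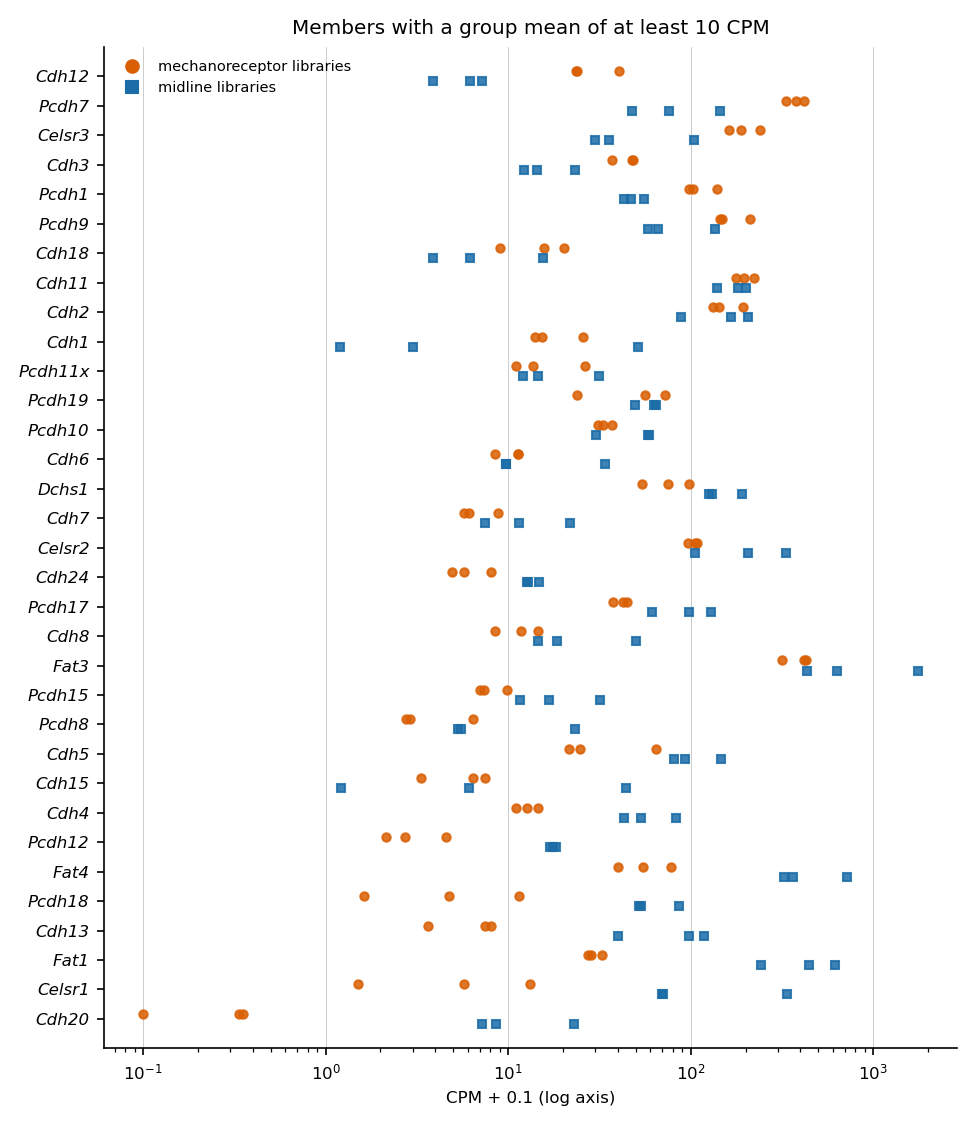
CPM plus 0.1, on a log axis, in each library for the genes with a group mean of at least 10 CPM, with circles for mechanoreceptor and squares for midline libraries, ordered by fold change. Celsr3 circles (163 to 239.9 CPM) lie right of its squares (30.0 to 105 CPM), and Celsr1 circles (1.40 to 13.1 CPM) lie left of its squares (69.6 to 337 CPM).

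The delta-1 protocadherins, which share a cytoplasmic motif that binds protein phosphatase 1, were the subfamily whose median lay toward mechanoreceptors (1.09 over 4 genes, with 2 called toward mechanoreceptors and 0 toward the midline). The shares over all genes were 18.8% toward mechanoreceptors and 18.9% toward the midline. Pcdh7, which in frog acts in cell adhesion and the growth of retinal axons, had 419, 379 and 332 CPM in mechanoreceptors, against 76.2, 146 and 47.7 CPM in the midline. Its mean was 377 ± 43.6 CPM in mechanoreceptors and 89.8 ± 50.4 CPM in the midline (SD, n = 3 each; log2 fold change 2.07, SE 0.39, adjusted p = 0.00529). The lowest mechanoreceptor library lay above the highest midline library. Pcdh1, an adhesion protein of epithelia, vessels and neurons, had 97.9, 139 and 102 CPM in mechanoreceptors and 43.3, 55.8 and 47.0 CPM in the midline (log2 fold change 1.22, SE 0.22, adjusted p = 0.00433). Its groups did not overlap and both were tight.

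Pcdh9, a neuronal delta-1 protocadherin, was not called, although its groups did not overlap. It had 212, 145 and 148 CPM in mechanoreceptors, against 66.2, 136 and 58.6 CPM in the midline (log2 fold change 0.96, SE 0.34, adjusted p = 0.0592). Midline library 3 was close to the lower mechanoreceptor libraries, and without it the log2 fold change was 1.47 with an adjusted p of 0.00245. With all libraries Pcdh9 also passed with DESeq2 (adjusted p = 0.043), with limma-voom (0.029) and without a count filter (0.0353). Pcdh11x, the X-linked member of the subfamily, overlapped between groups, at 26.3, 13.7 and 11.0 CPM in mechanoreceptors and 14.4, 31.2 and 12 CPM in the midline (log2 fold change -0.17, SE 0.48, adjusted p = 0.800). Midline library 3 was highest among the midline libraries for each of the 4 delta-1 genes.

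The delta-2 protocadherins, which can recruit the WAVE actin regulator through their tails, had a median log2 fold change of -1.21 over 5 genes, with 0 called toward mechanoreceptors and 2 toward the midline. Over all genes 18.8% were called toward mechanoreceptors and 18.9% toward the midline. Pcdh18, which in fish acts in cell movement and axon branching, had 11.4, 4.63 and 1.53 CPM in mechanoreceptors, against 86.8, 53.5 and 51.8 CPM in the midline (log2 fold change -3.44, SE 0.63, adjusted p = 0.00477). The lowest midline library was well above the highest mechanoreceptor library, and without mechanoreceptor library 2 the log2 fold change was -4.34. Pcdh17, which in mouse forebrain promotes collective axon extension, had 44.8, 42.8 and 37.3 CPM in mechanoreceptors and 98.2, 130.1 and 61.1 CPM in the midline (log2 fold change -1.21, SE 0.28, adjusted p = 0.0127). Its groups did not overlap, and the call was lost without mechanoreceptor library 8 (adjusted p = 0.0502) or library 9 (0.0560).

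The other 3 delta-2 genes were not called. Pcdh10, needed for striatal and thalamocortical axon growth in mouse, had 30.9, 33.0 and 36.8 CPM in mechanoreceptors and 30.2, 58.2 and 59.4 CPM in the midline (log2 fold change -0.55, SE 0.29, adjusted p = 0.163). Midline library 2 lay below the mechanoreceptor libraries, and without it the adjusted p was 0.0228. Pcdh19, whose human counterpart is an epilepsy gene, had 72.2, 23.8 and 56.1 CPM in mechanoreceptors and 62.7, 64.2 and 49.3 CPM in the midline (log2 fold change -0.21, SE 0.37, adjusted p = 0.681). Its spread was widest among the mechanoreceptor libraries. Pcdh8, the activity-regulated arcadlin, had 2.65, 6.30 and 2.81 CPM in mechanoreceptors and 5.45, 23.2 and 5.21 CPM in the midline (log2 fold change -1.51, SE 0.70, adjusted p = 0.122). Pcdh8 was highest in midline library 3, where the summed dorsal horn markers also peaked (19.7, 27.6 and 23.1 CPM in mechanoreceptors, where Lbx1 had no count, against 148, 1010.1 and 339 CPM in the midline). Of the 8 dorsal horn markers tested 1 was called toward mechanoreceptors and 6 toward the midline, and their part in the Pcdh8 level was not tested.

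Among the remaining protocadherins, Pcdh12, an endothelial and trophoblast protein, had 4.50, 2.61 and 2.04 CPM in mechanoreceptors, against 18.3, 17 and 17.5 CPM in the midline (log2 fold change -2.52, SE 0.40, adjusted p = 0.00288). Its midline libraries lay within a narrow band well above the other group. Pcdh15, a tip-link protein of inner ear hair cells, had 7.27, 9.74 and 6.90 CPM in mechanoreceptors and 16.7, 31.7 and 11.5 CPM in the midline (log2 fold change -1.32, SE 0.43, adjusted p = 0.0422). This call was lost without any one of mechanoreceptor libraries 2, 8 and 9 (adjusted p = 0.127, 0.0799 and 0.123) and without midline library 3 (log2 fold change -0.78, adjusted p = 0.147). It was also lost without a count filter (0.0558), with limma-voom (0.0607) and with limma on the deposited log2 values (0.155). Pcdh20 had too few counts to test, at 0 to 0.231 CPM in mechanoreceptors and 0.631 to 4.01 CPM in the midline.

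The classical type I cadherins showed calls in both directions among 5 genes, 1 toward mechanoreceptors and 1 toward the midline, with a median log2 fold change of -0.03. Both counts lay near the shares over all genes (18.8% toward mechanoreceptors and 18.9% toward the midline). Cdh3, or P-cadherin, an epithelial cadherin, had 47.5, 48.3 and 36.9 CPM in mechanoreceptors, against 14.3, 23.2 and 12.2 CPM in the midline (log2 fold change 1.43, SE 0.30, adjusted p = 0.00837). Cdh4, or R-cadherin, a cadherin of retina, brain and kidney, had 12.6, 14.49 and 11.0 CPM in mechanoreceptors and 43.0, 83.0 and 53.7 CPM in the midline (log2 fold change -2.24, SE 0.30, adjusted p = 0.00154). Groups did not overlap for either gene. Cdh2, or N-cadherin, the main classical cadherin of neural tissue, had 143, 194 and 132 CPM in mechanoreceptors and 88.4, 167 and 205 CPM in the midline (log2 fold change 0.03, SE 0.32, adjusted p = 0.954). Its groups overlapped fully and its direction depended on the setting.

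Cdh1 and Cdh15 were each dominated by midline library 2. Cdh1, or E-cadherin of epithelia, had 15.3, 25.5 and 13.9 CPM in mechanoreceptors and 51.5, 2.90 and 1.10 CPM in the midline (log2 fold change -0.03, SE 1.10, adjusted p = 0.987). Without midline library 2 its log2 fold change was 3.25 with an adjusted p of 0.00321, higher in mechanoreceptors. The keratinocyte markers had the same peak, summing to 24.2, 30.2 and 26.1 CPM in mechanoreceptors, where Krt15 had no count, against 733, 32.1 and 41.0 CPM in the midline, and 3 of 5 tested were called higher in the midline. Cdh15, or M-cadherin of muscle precursors, had 3.23, 6.30 and 7.41 CPM in mechanoreceptors and 44.1, 1.12 and 6.0 CPM in the midline (log2 fold change -1.60, SE 1.04, adjusted p = 0.253), and its log2 fold change was 0.66 without midline library 2. The summed muscle markers were 12.2, 27.8 and 31.7 CPM in mechanoreceptors, where Myog had no count, against 35887, 344 and 3409 CPM in the midline, and all 8 tested were called higher in the midline. Skin and muscle markers therefore peaked in the same library as these cadherins, and their part in both levels was not tested.

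**Figure D3:**
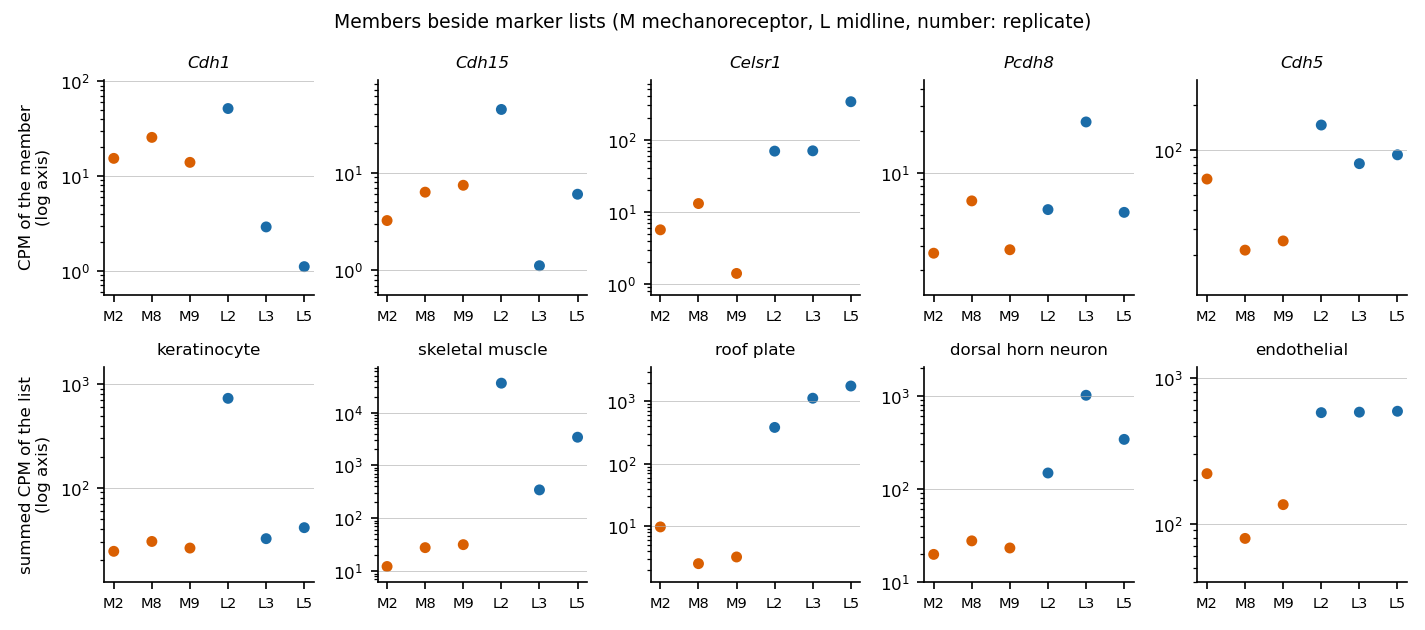
CPM of 5 cadherin superfamily genes (upper row) above the summed CPM of a marker list (lower row) in each library on log axes, with mechanoreceptor libraries left of midline libraries. Cdh1 and Cdh15 peak in midline library 2 together with keratinocyte (733 CPM) and muscle (35887 CPM) markers, and Pcdh8 peaks in midline library 3 with dorsal horn markers (1010.1 CPM).

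The type II cadherins, the largest subfamily with 13 genes, had 1 gene called toward mechanoreceptors, 3 toward the midline and a median log2 fold change of -0.74. Over all genes 18.8% were called toward mechanoreceptors and 18.9% toward the midline, and the midline count lay near the latter share. Cdh12, a cadherin of brain neurons, had 40.6, 23.4 and 23.9 CPM in mechanoreceptors, against 6.09, 7.14 and 3.79 CPM in the midline (log2 fold change 2.37, SE 0.38, adjusted p = 0.00298). Cdh20, known from the developing brain, was nearly absent from mechanoreceptors, at 0, 0.238 and 0.255 CPM, against 7.06, 23 and 8.52 CPM in the midline. These values rested on 0, 2 and 2 counts in mechanoreceptors and on 44, 103 and 54 counts in the midline, and 3 counts were worth 0.346 to 0.669 CPM. Each mechanoreceptor library lay under that level and each midline library far above it (log2 fold change -6.16, SE 0.88, adjusted p = 0.00189, and -5.41 without midline library 3).

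Cdh5, or VE-cadherin, the cadherin of endothelial junctions, had 64.2, 21.5 and 24.8 CPM in mechanoreceptors, against 148, 81.4 and 93.3 CPM in the midline (log2 fold change -1.54, SE 0.45, adjusted p = 0.0275). Endothelial markers other than Cdh5, 9 in number, summed to 156, 57.9 and 110.3 CPM in mechanoreceptors and 428, 498 and 495 CPM in the midline. Mechanoreceptor library 2 was highest of its group for both measures. Midline library 2 was highest of its group for Cdh5 but lowest for that sum. Of the 10 endothelial markers, a list that includes Cdh5, 9 were called higher in the midline, the Cdh5 call among them. Endothelial transcripts were thus present in both groups, and their part in the Cdh5 and Pcdh12 differences was not tested. The Cdh5 call was lost without mechanoreceptor library 8 (adjusted p = 0.0927), mechanoreceptor library 9 (0.0996) or midline library 2 (0.0602), and the log2 fold change was -2.19 without mechanoreceptor library 2. Cdh24, a little-studied cadherin that binds catenins, had 5.65, 7.96 and 4.85 CPM in mechanoreceptors and 14.6, 12.7 and 12.6 CPM in the midline (log2 fold change -1.11, SE 0.35, adjusted p = 0.0370). Its groups did not overlap, but the call was lost when any one of the 6 libraries was left out (adjusted p of 0.0534 to 0.116), without a count filter (0.0748) or with limma on the deposited log2 values (0.137).

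The other 9 type II genes were not called. Cdh11, a cadherin of mesenchyme and neural tissue, was measured at 196, 224 and 176 CPM in mechanoreceptors and 202, 181 and 140.0 CPM in the midline (log2 fold change 0.19, SE 0.21, adjusted p = 0.502). Cdh8, which in mouse is found in sensory neurons and dorsal horn cells of the cold pathway, had 8.42, 14.49 and 11.7 CPM in mechanoreceptors and 18.4, 50.4 and 14.52 CPM in the midline (log2 fold change -1.26, SE 0.50, adjusted p = 0.0795, and 0.0454 without midline library 5). Groups overlapped for Cdh11, and the lowest midline library of Cdh8 barely exceeded the highest mechanoreceptor library. With all libraries Cdh8 passed with DESeq2 (adjusted p = 0.0336) and upper-quartile scaling (0.0494). Cdh18, a brain cadherin, had 20.2, 15.7 and 8.94 CPM in mechanoreceptors and 6.09, 15.4 and 3.79 CPM in the midline (log2 fold change 0.84, SE 0.56, adjusted p = 0.267, and 0.0324 without midline library 3). Cdh7, a cadherin of migrating neural crest in chick, had 5.65, 8.67 and 6.0 CPM in mechanoreceptors and 7.38, 21.9 and 11.4 CPM in the midline (log2 fold change -0.99, SE 0.47, adjusted p = 0.129). Cdh6, a cadherin of neural crest and kidney, had 11.2, 11.3 and 8.43 CPM in mechanoreceptors and 9.62, 9.59 and 33.9 CPM in the midline (log2 fold change -0.79, SE 0.53, adjusted p = 0.271). All 3 overlapped, with 1 midline library above the other 2 in each case.

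Cdh19, a marker of Schwann cell precursors, was low but did not overlap between the groups, at 3.92, 6.77 and 4.34 CPM in mechanoreceptors and 3.05, 0.892 and 0.316 CPM in the midline (log2 fold change 1.79, SE 0.77, adjusted p = 0.10). Without midline library 2 the log2 fold change was 3.10 with an adjusted p of 0.0194. With all libraries Cdh19 passed with limma on the deposited log2 values (adjusted p = 0.0162). The 8 Schwann and satellite glia markers summed to 336, 589.8 and 483 CPM in mechanoreceptors and 868, 2649.8 and 3436 CPM in the midline, with 3 called toward mechanoreceptors, 1 toward the midline and 4 not called. Without Cdh19 itself and Fabp7, which is also on the radial glia list, the remaining 6 summed to 189, 266 and 249 CPM in mechanoreceptors and 67.2, 22.3 and 23.8 CPM in the midline, opposite to the full list. Mechanoreceptor library 8 was the highest of its group for Cdh19 and for both sums, and midline library 2 for Cdh19 and the sum over 6. The part of such glia in the Cdh19 level was not tested. Cdh9, Cdh10 and Cdh22, all neuronal cadherins, stayed at or under 7.89 CPM in every library and were not called.

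Of the atypical cadherins, which lack the catenin-binding tail or differ in their repeats, Cdh13 was the single gene called among 4 tested, and their median log2 fold change was -2.65. It was called higher in the midline, as were 18.9% of all genes. Cdh13, or T-cadherin, which is held by a lipid anchor and acts as an adiponectin receptor and a repellent for motor axons in chick, had 7.96, 3.56 and 7.41 CPM in mechanoreceptors. It had 39.8, 98.4 and 118 CPM in the midline (log2 fold change -3.75, SE 0.49, adjusted p = 0.00140). The lowest midline library was several times the highest mechanoreceptor library. Cdh23, the partner of Pcdh15 in the hair cell tip link, and Cdh16, of kidney, did not pass the test (adjusted p = 0.0724 and 0.0807). Cdh23 had 0 to 1.66 CPM in mechanoreceptors and 3.31 to 5.13 CPM in the midline, and Cdh16 had 0 to 1.02 CPM in mechanoreceptors and 1.58 to 4.01 CPM in the midline. Without mechanoreceptor library 9 both passed, with adjusted p = 0.0371 for Cdh23 and 0.0258 for Cdh16. With all libraries both passed with limma-voom (adjusted p = 0.0274 for Cdh23 and 0.0368 for Cdh16), and Cdh23 also with DESeq2 (0.0266). Cdh17, of intestine, had 0 to 1.90 CPM in mechanoreceptors and 0.947 to 5.13 CPM in the midline (adjusted p = 0.303), and Cdh26 was too low to test.

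Levels of different genes can be compared per kilobase of transcript, for which a length was found for 42 of the 43 genes. In mechanoreceptors the highest were Pcdh9 at 45.4 ± 10.2, Pcdh7 at 42.9 ± 4.97, Cdh11 at 35.2 ± 4.19, Cdh2 at 32.3 ± 6.87 and Pcdh1 at 29 ± 5.81 CPM per kilobase (SD, n = 3). In the midline the highest were Fat3 at 51.2 ± 38.9, Cdh2 at 31.7 ± 12.3, Cdh11 at 30.9 ± 5.61, Fat1 at 29.8 ± 12.9 and Fat4 at 29.2 ± 13.6 CPM per kilobase. Among these 5 genes of each group neighbours lay within their spread, and the lengths are those of one annotation, so their order is not determined. N-cadherin and Cdh11 were near the top in both cell types, whereas 3 delta-1 protocadherins led with them in mechanoreceptors and 3 Fat genes in the midline. Pcdh7 ranked 2 in mechanoreceptors and 14 in the midline, Celsr3 ranked 7 and 21, Fat1 ranked 21 and 4, and Fat4 ranked 18 and 5.

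Summed over the genes, the level was 2512, 2229 and 2029.9 CPM in mechanoreceptors and 2843, 3664 and 4765 CPM in the midline. That sum is not scaled by transcript length. Fat and Dachsous genes made up 25.1%, 21.6% and 26.7% of it in mechanoreceptors, against 48.9%, 47.2% and 60.9% in the midline. Of the sum per kilobase, delta-1 protocadherins made up 37.5%, 36.5% and 37.5% in mechanoreceptors, against 10.7%, 15.5% and 7.11% in the midline. Fat and Dachsous genes made up 11.3%, 9.26% and 11.6% in mechanoreceptors, against 25.6%, 24.7% and 37.7% in the midline. The order of these 2 subfamilies was opposite in the groups, and neither share overlapped between them. Type II cadherins made up 21.4 ± 0.970% in mechanoreceptors and 21.2 ± 5.87% in the midline, and type I cadherins 16.0 ± 2.74% in mechanoreceptors and 13.1 ± 1.81% in the midline (SD, n = 3 each). The shares of classical subfamilies thus overlapped. Atypical cadherins, mostly Cdh13, made up 0.526% to 0.969% in mechanoreceptors, against 3.83% to 6.98% in the midline. With 3 libraries a group, an exact permutation test of a share cannot go below p = 0.10, so none was run.

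**Figure D4:**
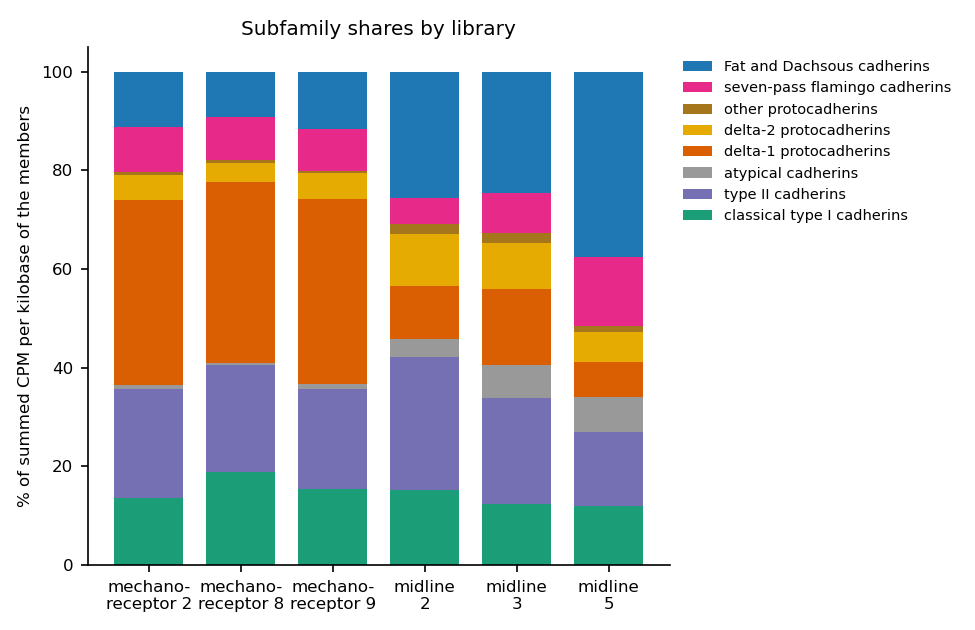
Share of the summed CPM per kilobase of 42 genes taken by each subfamily in each library, with mechanoreceptor libraries left of midline libraries. Delta-1 protocadherins take 36.5% to 37.5% in mechanoreceptors against 7.11% to 15.5% in the midline, and Fat and Dachsous genes 9.26% to 11.6% in mechanoreceptors against 24.7% to 37.7% in the midline.

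The count table lists 65 transcript rows for these genes, with several rows for 8 of them, in which reads of shared exons can count more than once. For each such gene the counts of its lowest row were divided by those of its highest row. For Pcdh7 the ratio was 0.591, 0.535 and 0.527 in mechanoreceptors, against 0.840, 0.643 and 0.652 in the midline. Every midline ratio was above every mechanoreceptor ratio, so the lower row held relatively fewer counts in mechanoreceptors. For Pcdh10 it was 0.720, 0.683 and 0.757 in mechanoreceptors, against 0.500, 0.609 and 0.566 in the midline, with the mechanoreceptors above. The ratios of Cdh3, Cdh8, Celsr2, Pcdh15 and Pcdh19 overlapped between the groups, and the rows of Pcdh8 had identical counts. Over all 2625 genes that could be compared, 18.7% had ratios that did not overlap, against 2 of the 7 genes with differing rows here. The rows cannot show which transcript gave a shared read, and no test was run.

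**Figure D5:**
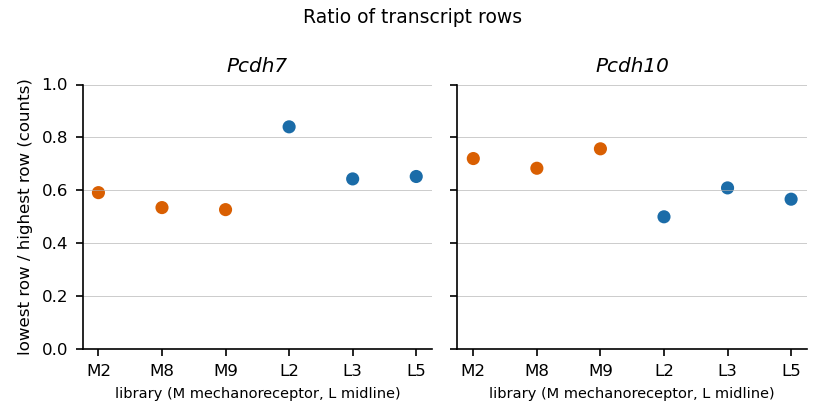
Counts of the lowest over the highest transcript row for Pcdh7 and Pcdh10 in each library, with mechanoreceptor libraries left of midline libraries. Pcdh7 ratios are 0.527 to 0.591 in mechanoreceptors against 0.643 to 0.840 in the midline, and Pcdh10 ratios are 0.683 to 0.757 in mechanoreceptors against 0.500 to 0.609 in the midline.

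The midline libraries differed among themselves in which cadherins they held. Of the 41 genes tested, 20 were highest among the midline libraries in library 3, 11 in library 2 and 10 in library 5, where 35.2%, 35.7% and 29.1% of all genes were. Library 3 led for the 4 delta-1 genes and for 9 type II or type I genes including Cdh20, Cdh4 and Cdh12, and was also the highest in dorsal horn markers (148, 1010.1 and 339 CPM in midline libraries 2, 3 and 5) and sensory neuron markers (763, 1856 and 1147 CPM). Library 5 led for Fat1, Fat3, Dchs1, Celsr1, Celsr2, Cdh13 and Cdh2, and was also the highest in roof plate and radial glia markers. Library 2 led for Cdh1, Cdh15, Cdh5, Cdh24, Pcdh12, Pcdh18 and Fat2, and was the highest in muscle, keratinocyte and connective tissue markers. Of the 9 connective tissue markers 6 were called higher in the midline, and the list summed to 329, 229.6 and 221 CPM in mechanoreceptors and 7312, 661 and 1246 CPM in the midline. Their part in these levels was not tested.

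Partners of cadherins were taken from lists by role, and of 74 tested 9 were called toward mechanoreceptors (18.8% of all genes were) and 28 toward the midline (18.9% of all genes were). The counts of each list are to be read against these shares. Toward mechanoreceptors, those of 2 of 11 catenins and 1 of 8 proteases lay near them. Toward the midline, those of 3 of 12 actin linkers, 2 of 11 protocadherin effectors and 2 of 8 proteases did. The 9 calls toward mechanoreceptors became 3, 2, 4 and 2 without mechanoreceptor library 2, 8 or 9 or midline library 5. The 28 toward the midline became 18 without mechanoreceptor library 9. Catenins, which tie cadherins to actin, had calls in both directions, 2 of 11 toward mechanoreceptors and 4 toward the midline. Jup, or plakoglobin, had 201, 223 and 185 CPM in mechanoreceptors, against 48.0, 34.4 and 41.7 CPM in the midline (log2 fold change 2.30, SE 0.20, adjusted p = 0.000377). Ctnna2, the neuronal alpha-catenin, had 279, 309 and 328 CPM in mechanoreceptors and 36.2, 165 and 51.3 CPM in the midline (log2 fold change 1.86, SE 0.52, adjusted p = 0.0243). The Ctnna2 call was lost without mechanoreceptor library 2, 8 or 9 or without midline library 5 (adjusted p of 0.0591 to 0.0706), and its log2 fold change was 2.84 without midline library 3. Ctnna1, the epithelial alpha-catenin, leaned the other way at 87.3, 79.0 and 88.2 CPM in mechanoreceptors and 214, 102 and 189 CPM in the midline (log2 fold change -0.99, SE 0.28, adjusted p = 0.0251). Its call was lost in 5 of the 6 fits that left out a library (adjusted p of 0.0589 to 0.0973). Pkp4, a plakophilin-related catenin, had a log2 fold change of -1.13 (SE 0.24, adjusted p = 0.00808). Ctnnb1, or beta-catenin, was not called, at 766, 744 and 663 CPM in mechanoreceptors and 882, 872 and 968 CPM in the midline (adjusted p = 0.230). Its groups did not overlap, with the midline above, and with limma on the deposited log2 values its adjusted p was 0.0114.

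Of 12 actin linkers and junction adaptors 0 were called toward mechanoreceptors and 3 toward the midline. The scaffold Tjp1 had a log2 fold change of -1.93 (SE 0.22, adjusted p = 0.000910) and the scaffold Magi2 one of -3.50 (SE 0.35, adjusted p = 0.000566). Mllt4, or afadin, was not called (log2 fold change 0.14, adjusted p = 0.561). Of 14 planar polarity partners of the Celsr proteins 1 was called toward mechanoreceptors and 5 toward the midline. Fzd3, the Frizzled receptor that acts with Celsr3 in axon tracts, had 140.5, 136 and 97.6 CPM in mechanoreceptors, against 255, 599.8 and 814 CPM in the midline (log2 fold change -2.16, SE 0.41, adjusted p = 0.00569). Fzd3 and Celsr3 thus lay higher in opposite groups. Vangl2, a core polarity protein, had a log2 fold change of -1.53 (SE 0.34, adjusted p = 0.0105, and 0.05002 with the call lost without mechanoreceptor library 2). The call of Dvl3, a Dishevelled protein, for mechanoreceptors (log2 fold change 0.62, adjusted p = 0.0307) was lost under 8 of the alternatives, and Prickle2 was not called (adjusted p = 0.844).

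The Fat and Dachsous pathway, which in flies and in part in mammals feeds into Hippo signalling, had 1 of 13 genes called toward mechanoreceptors and 7 toward the midline. Lix1, a homologue of the fly Fat pathway gene lowfat, had 495, 488 and 509 CPM in mechanoreceptors, against 11.7, 18.5 and 6.79 CPM in the midline (log2 fold change 5.34, SE 0.38, adjusted p = 0.000201). Tead1, a Hippo transcription factor, had 37.1, 43.1 and 33.3 CPM in mechanoreceptors and 458, 160 and 297 CPM in the midline (log2 fold change -3.01, SE 0.38, adjusted p = 0.00125). Lix1 and Tead1 had groups far apart in opposite directions. Yap1, the Hippo coactivator, chosen after its values were seen, had 5.88, 5.35 and 6.26 CPM in mechanoreceptors and 86.9, 49.3 and 82.9 CPM in the midline (log2 fold change -3.65, SE 0.29, adjusted p = 0.000301). Amotl1, an angiomotin that binds Yap, had a log2 fold change of -1.66 (adjusted p = 0.0229), which was -0.84 without midline library 2, and the call was lost without any one of the mechanoreceptor libraries (adjusted p of 0.0688 to 0.0847). The kinase Lats1 was not called (adjusted p = 0.603).

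Protocadherin effectors had 4 of 11 genes called toward mechanoreceptors and 2 toward the midline. Cyfip2 and Cyfip1, alternative subunits of the WAVE complex, lay on opposite sides. Cyfip2 had 433, 472 and 379 CPM in mechanoreceptors and 70.7, 233 and 116 CPM in the midline (log2 fold change 1.61, SE 0.40, adjusted p = 0.0161). Without mechanoreceptor library 8 (adjusted p = 0.0529) or midline library 5 (0.0524) the Cyfip2 call was lost, and without midline library 3 its log2 fold change was 2.23. Cyfip1 had 77.6, 64.2 and 81.7 CPM in mechanoreceptors and 143, 122 and 154 CPM in the midline (log2 fold change -0.91, SE 0.19, adjusted p = 0.00809). Ppp1ca, the phosphatase that delta-1 tails bind, differed little (log2 fold change 0.57, adjusted p = 0.0391) and lost its call under 8 alternatives. The kinase Fyn had a log2 fold change of -0.81 (adjusted p = 0.0198). Its call was lost without mechanoreceptor library 2, mechanoreceptor library 9 or midline library 5 (0.0520 to 0.0861). Abi2, a WAVE subunit, was not called (adjusted p = 0.272, and 0.0356 without midline library 3).

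Of 8 proteases that cut or mature cadherins 1 was called toward mechanoreceptors and 2 toward the midline. Adam10, the main sheddase of N-cadherin and E-cadherin, was not called (log2 fold change -0.03, SE 0.21, adjusted p = 0.935). Psen2, of the gamma-secretase complex, had a log2 fold change of 1.52 (adjusted p = 0.0375), Adam17 one of -1.03 (0.0294) and the convertase Pcsk6 one of -3.16 (0.0132). The calls of Psen2 and Adam17 were lost without mechanoreceptor library 2, 8 or 9 or midline library 5 (adjusted p of 0.0741 to 0.104), and that of Psen2 also with upper-quartile scaling (0.0620). The Pcsk6 call was lost without mechanoreceptor library 8 or 9 or midline library 2 and with limma on the deposited log2 values (0.0510 to 0.0541), and its log2 fold change was -2.20 without midline library 2. All 5 repressors of cadherin genes that could be tested were called higher in the midline. Tcf4, an E-box binding factor, had 66.4, 49.5 and 45.7 CPM in mechanoreceptors, against 452, 426 and 410.0 CPM in the midline (log2 fold change -2.99, SE 0.22, adjusted p = 0.000219). Zeb2, a repressor of E-cadherin, had 79.1, 68.1 and 93.7 CPM in mechanoreceptors and 361, 529.6 and 377 CPM in the midline (log2 fold change -2.40, SE 0.24, adjusted p = 0.000563). Zeb1, Snai2 and Twist1 were the remaining 3, and the Snai2 call was lost under 7 alternatives. Snai2 had 2.77, 0.950 and 5.75 CPM in mechanoreceptors and 34.3, 9.15 and 6.47 CPM in the midline. Twist1 had 0.115, 0.594 and 0.639 CPM in mechanoreceptors and 20.5, 2.90 and 5.37 CPM in the midline. Both peaked in midline library 2, as did the connective tissue markers, a list that includes Twist1. The part of that tissue in both levels was not tested.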

How the data were processed

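RNA was sequenced from 3 mechanoreceptor and 3 midline libraries. The authors deposited whole-number counts per RefSeq transcript, with log2 expression values and with log2 fold changes, false discovery rate p-values and marks of their own in the same table. The submitters' processing notes name mm9 and edgeR. The aligner, the counter and the strand setting are not given in the sources used here. Reads of overlapping or antisense genes cannot be told apart. Total counts over transcript rows were 12031898 to 13801474 in mechanoreceptors, against 5599811 to 8081153 in the midline. The row with the highest total was kept for each gene.

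The test was that of edgeR 4.0.16 in R 4.3.3 (TMM scaling, filterByExpr with minimum count 10 and minimum total 15, glmQLFit and glmQLFTest, 4 residual degrees of freedom), with Benjamini-Hochberg adjustment over 15314 genes and a threshold of 0.05. CPM is scaled by TMM. Standard errors are the size of a log2 fold change over the root of its F. Alternatives used DESeq2 1.42.0, limma 3.58.1 on counts (voom) and on the log2 values deposited by the authors, other scaling, filters and rows, and each library left out. The labels name no batch.

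Transcript lengths came from GENCODE M21, matched by RefSeq accession, and promoters from RefSeq on GRCm38.p6, another build than that of the reads. The members and lists were chosen with earlier results of these data known. Members with a group mean of at least 10 CPM, or called with at least 3 CPM, have every library's value. Of each partner list up to 2 called genes in each direction and 1 not called are named, by mean CPM. Cdh19, Yap1, Zeb1, Snai2 and Twist1 are named outside that rule, after their values were seen.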

Additional observations from a re-analysis of the deposited data

How the results depend on the processing

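No call among the named genes reversed its direction under any alternative, and Cdh1, which was not called, was reversed to 3.25 without midline library 2 (range -0.58 to 3.25 with a library left out). The number of cadherin superfamily genes called higher in mechanoreceptors (5) was 4 to 7 with a library left out, and 5 or 6 otherwise. The number higher in the midline (14) was 9 to 14 with a library left out, the lowest being 9 without mechanoreceptor library 8, and 12 to 18 otherwise. Of the 22 genes not called, 10 passed under at least 1 alternative. Partners called higher in mechanoreceptors (9) numbered 2 to 12 with a library left out and 5 with upper-quartile scaling, and partners higher in the midline (28) numbered 18 to 31 with a library left out. Over all genes, leaving out a library gave 1893 to 3206 calls toward mechanoreceptors (2886 with all; 1893 without mechanoreceptor library 8) and 1862 to 2990 toward the midline (2902 with all; 1922 without mechanoreceptor library 2 and 1862 without library 8). Upper-quartile scaling moved the median of all genes to -0.26 and the mechanoreceptor share of all calls to 36.9%, against 49.9% with TMM, and the members' share to 22.7%, against 26.3%. The cause of these changes was not tested. Without the count filter, the median of all genes was -0.30. The sign of 8 genes that were not called depended on the setting: Cdh1, Cdh2, Cdh11, Cdh15 and Pcdh11x under several alternatives, and Cdh6 (0.11), Cdh22 (-0.05) and Pcdh19 (0.15) with 1 library left out. No paired analysis was possible because the groups share only replicate number 2. Depth limits the low genes most: 3 counts were worth up to 0.669 CPM, above every mechanoreceptor value of Cdh20.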

Other observations

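The authors' deposited table marks 20 of these genes as different on the rows kept here, 13 higher in spinal cord and 7 higher in ganglia, by its own false discovery rate and fold. Of the 19 genes called here 15 carry such a mark in the authors' deposited table. Those marked only in the authors' deposited table are Pcdh9 and Cdh19, whose groups did not overlap with mechanoreceptors above, and Cdh16, Cdh23 and Pcdh20, low genes listed higher in spinal cord. Those called here without such a mark are Cdh24, Dchs1, Pcdh15 and Pcdh17, all higher in the midline with modest folds, and each of these 4 calls was lost when some single libraries were left out.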
